A study of Mus musculus with 8 samples.

Results

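The core circadian clock genes were examined in liver as 10 genes chosen by name: the activators Arntl (also called Bmal1), Clock and Npas2, the repressors Per1, Per2, Per3, Cry1 and Cry2, the nuclear receptor Nr1d1 (REV-ERB alpha) and the output factor Dbp. All 10 were measured, among 19560 genes on the arrays, each through 7 to 27 probe sets that carry its symbol alone. RNA of whole liver came from 8 male mice aged 6 weeks, 1 Affymetrix array per mouse. One genotype, here Tak1/Casp8 (4 mice), lacked both TAK1 and caspase 8 in liver parenchymal cells (LPC). The other, here Tak1/Rip3 (4 mice), lacked TAK1 in LPC and carried Rip3-/-, a knockout that is not limited to LPC. The loss of TAK1 in LPC was thus common to every mouse, mice with intact TAK1 were not analysed here, and which promoter or Cre line drove the LPC deletions is not stated in the labels. The study set the genotypes against each other to find genes that apoptotic and necrotic signalling regulate differently. The 6 hepatocyte markers, Alb among them, had a mean level of 13.65 to 13.72 on every array. Their median SD within genotypes was 0.06, against 0.18 over all genes. Whether such high and steady signals measure hepatocyte content was not tested. In whole tissue fewer cells of a type and less RNA per cell cannot be told apart.

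The clock of a liver cell is a feedback loop of transcription. A dimer of ARNTL with CLOCK or its relative NPAS2 binds E-box elements and switches on Per and Cry genes, whose proteins return to the nucleus and block the dimer. The same dimer drives Nr1d1, whose product binds ROR elements and represses Arntl and Npas2, and Dbp, a bZIP factor that binds D-box elements in front of Per genes and of many liver enzymes. In mouse liver the transcripts of Arntl and Npas2 are therefore high in the part of the day when those of Dbp and Per3 are low, and Clock varies little over the day. The labels used here give no hour of collection and no feeding or light schedule, and the part of these in the values was not tested.

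None of the 10 clock genes differed between the genotypes at an adjusted p under 0.05 (limma, Benjamini-Hochberg over all genes), whereas 6.69% of all genes did, 2.64% higher and 4.05% lower in Tak1/Casp8. Of their 181 probe sets none passed over all probe sets (limma, 1.63% of all), and 10 had an unadjusted p under 0.05 (15.5% of all). One of them, Cry2, had an unadjusted p under 0.05, against 21.1% of all genes, and Cry2 was also the only one whose genotypes did not overlap, against 14.6% of all genes. The differences, each Tak1/Casp8 minus Tak1/Rip3 on the log2 scale, ran from -0.95 for Npas2 to 0.41 for Per3, with 4 negative and 6 positive. In 7 of the 10 genes the difference was smaller than the pooled SD among mice of one genotype. That spread was wide: for Npas2, Arntl, Dbp, Per1 and Per3 it lay in the top 5% of all genes. Within Tak1/Casp8, Per1, Per2 and Nr1d1 departed most in replicate 3, by -0.80, -0.49 and 0.48 from the mean of the genotype. The largest departures of all lay in Tak1/Rip3 replicate 2 and Tak1/Casp8 replicate 4, where Arntl and Npas2 were low and Dbp and Per3 high.

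These arrays were also the ones that correlated least with their own genotype over all genes, with a mean Pearson correlation of 0.987 for Tak1/Rip3 replicate 2 (0.99 to 0.991 in the other 3) and of 0.985 for Tak1/Casp8 replicate 4 (0.988 to 0.989). All array medians lay between 8.06 and 8.16, but these arrays had the lowest median of their genotype. It was 8.1 for Tak1/Rip3 replicate 2 (8.13 to 8.16 in the other 3) and 8.06 for Tak1/Casp8 replicate 4 (8.09 to 8.12). Spans and differences without both are given beside those of the clock genes that moved with them, and this omission was chosen with earlier results of these data known.

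**Figure D1:**
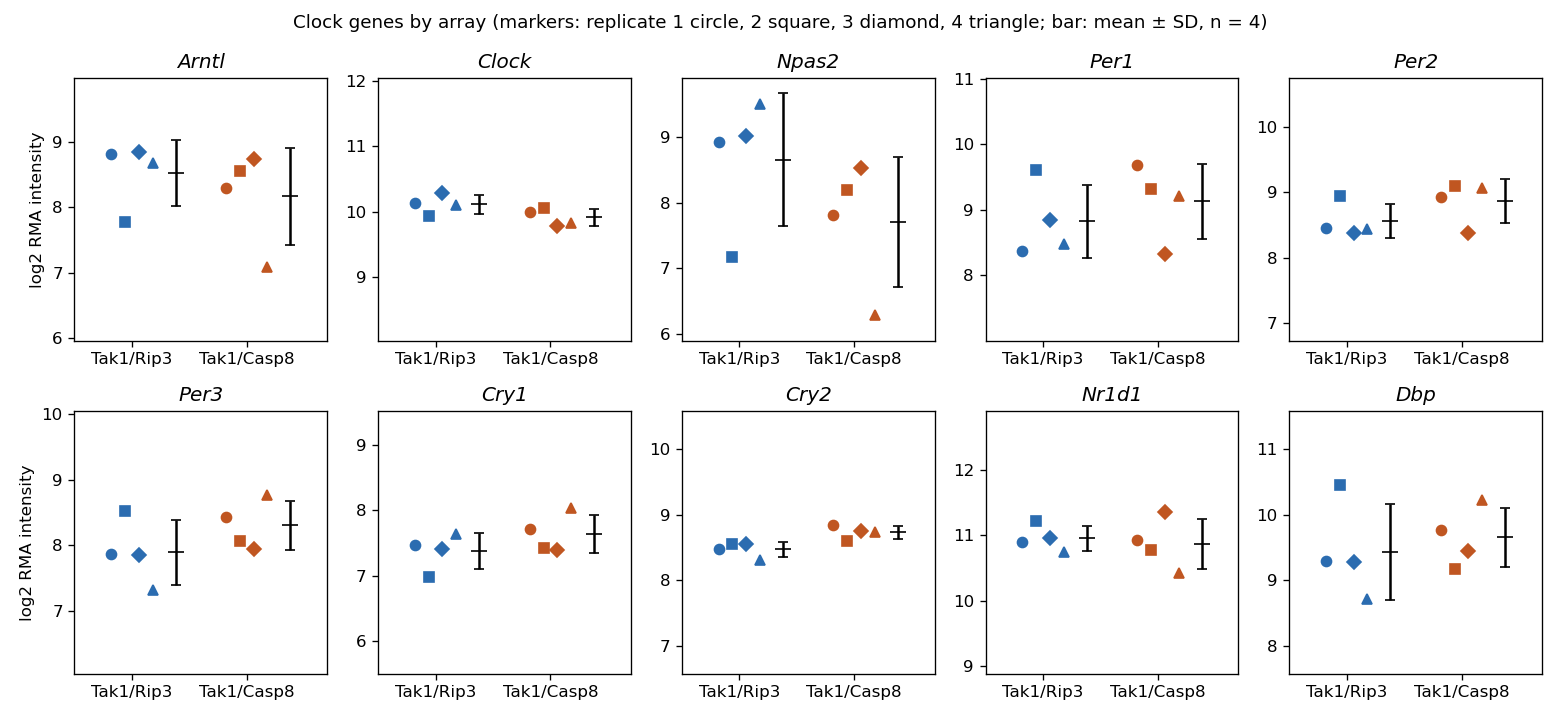
Log2 RMA intensity of each clock gene on each array (points; the marker gives the replicate) by genotype, with mean ± SD (bars, n = 4); every panel spans the same number of log2 units. Npas2 falls to 7.18 in Tak1/Rip3 replicate 2 and to 6.29 in Tak1/Casp8 replicate 4, while Clock and Cry2 barely move.

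The activators showed both the widest and one of the narrowest spreads. Arntl encodes the partner that every activating dimer needs. In the Tak1/Rip3 livers Arntl read 8.81, 7.78, 8.84 and 8.68 in replicates 1 to 4, and in the Tak1/Casp8 livers 8.29, 8.55, 8.74 and 7.09. Within each genotype 3 mice lay close together and 1 lay well below, and the genotypes overlapped. The mean was 8.17 ± 0.74 (SD, n = 4) in Tak1/Casp8 and 8.53 ± 0.50 in Tak1/Rip3, a difference of -0.36 ± 0.35 (SE, 95% interval -1.13 to 0.41, limma adjusted p = 0.612). The difference was close to 0 without Tak1/Casp8 replicate 4 alone and -0.61 without Tak1/Rip3 replicate 2 alone. Without both the SD was 0.23 and 0.09, and the difference was -0.25 (limma adjusted p = 0.287). Of its 22 probe sets, 20 were lower in both of these mice than in the other mice of their genotype. Over all genes 62.4% departed to the same side, up or down, in both of these mice.

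The sites through which NR1D1 and the ROR receptors act on Arntl are shown here because they join these genes in the loop. Both stretches come from the RefSeq promoter table (build GRCm38.p6, plus strand), at chr7:113207493-113207519 and chr7:113207529-113207555, and the capitals mark matches to the ROR element, sought on both strands in a form of 11 bases whose last base but one was left free.
Arntl first site: ttggtcggAAAGTAGGTTAgtggtgcg
Arntl second site: gaaggcagAAAGTAGGTCAgggacgga
The first match starts at position -10 and the second at position 27 from the later of the annotated Arntl starts. Of 32851 promoter windows of 300 bases in that table, 0.0609% held this element, and among 13 windows of 9 of the clock genes only those of Arntl did.

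Npas2, which can take the place of CLOCK in the dimer, had the largest spread of the 10. Its values were 8.93, 7.18, 9.02 and 9.51 in the Tak1/Rip3 livers and 7.82, 8.19, 8.54 and 6.29 in the Tak1/Casp8 livers. The lowest and highest mouse thus differed 5.04-fold within Tak1/Rip3 and 4.76-fold within Tak1/Casp8, and without the lowest mouse of each 1.5-fold and 1.65-fold. The lowest value, 6.29, lay under the lower quartile of probe sets on its array, 6.49, where RMA compresses differences. The means were 7.71 ± 0.99 (SD, n = 4) in Tak1/Casp8 and 8.66 ± 1.02 in Tak1/Rip3, a difference of -0.95 ± 0.55 (SE, 95% interval -2.16 to 0.27, limma adjusted p = 0.365, exact two-sided permutation p = 0.26). Without the 2 arrays that stand apart the difference was nearly the same size, -0.97. It then passed the test (limma adjusted p = 0.0327, where 7.44% of all genes passed). These arrays held the lowest Npas2 value of each genotype, and without them the pooled SD went from 1.01 to 0.34. The omission thus took out the gene's own extremes, so this pass is no separate support for a difference between genotypes. The 3 remaining Tak1/Casp8 values then all lay below the 3 remaining Tak1/Rip3 values. How many of all genes were separated in this way without both arrays was not counted, so this too is no separate support. Over all 8 arrays 14.6% of all genes did not overlap, and Npas2 was not among them. With only the Tak1/Casp8 array left out the difference was -0.47, and with only the Tak1/Rip3 array left out -1.44, and neither passed. Of the 22 probe sets of Npas2, 21 had a lower mean in Tak1/Casp8 (-1.74 to 0.07 over all of them).

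Clock, the histone acetyltransferase partner of ARNTL, varied little. It read 10.13, 9.94, 10.29 and 10.10 in the Tak1/Rip3 livers and 9.99, 10.06, 9.78 and 9.83 in the Tak1/Casp8 livers. The genotypes overlapped, and the pooled SD of 0.14 stood at percentile 30.5 of all genes. The difference was -0.20 ± 0.11 (SE, 95% interval -0.43 to 0.04, limma adjusted p = 0.336), with 18 of 25 probe sets negative. It was -0.29 over the brighter probe sets of the gene (limma adjusted p = 0.0732) and -0.05 in the brightest one.

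Among the repressors, the Per genes encode the proteins that carry the CRY proteins into the nucleus, and Per1 and Per2 also respond directly to glucocorticoid and to signals from outside the loop. Per1 read 8.37, 9.61, 8.84 and 8.48 in the Tak1/Rip3 livers and 9.68, 9.31, 8.33 and 9.21 in the Tak1/Casp8 livers. It was high in Tak1/Rip3 replicate 2 and low in Tak1/Casp8 replicate 3, a different mouse from the one in which Arntl and Npas2 were low. The difference was 0.30 ± 0.32 (SE, 95% interval -0.39 to 1.00, limma adjusted p = 0.637). It ran from 0.12 without Tak1/Casp8 replicate 1 to 0.57 without Tak1/Rip3 replicate 2 or without Tak1/Casp8 replicate 3, and was 0.54 without both arrays that stand apart. The pooled SD stood at percentile 98.9 of all genes with and without those arrays, but the SD went from 0.56 to 0.25 in Tak1/Rip3 and from 0.57 to 0.70 in Tak1/Casp8.

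Per2 followed the order of Per1 only in part, with 8.45, 8.94, 8.38 and 8.44 in the Tak1/Rip3 livers and 8.92, 9.10, 8.37 and 9.06 in the Tak1/Casp8 livers. In each genotype 1 mouse stood away from 3 others, Tak1/Rip3 replicate 2 above and Tak1/Casp8 replicate 3 below. The difference was 0.31 ± 0.18 (SE, 95% interval -0.09 to 0.71, limma adjusted p = 0.364), with 17 of 21 probe sets positive. Without both arrays that stand apart it was 0.38, and without Tak1/Casp8 replicate 3 it was 0.48. Another 3 probe sets that carry the symbols of Per2 and 9830107B12Rik were left out.

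Per3 read 7.87, 8.53, 7.86 and 7.32 in the Tak1/Rip3 livers and 8.43, 8.07, 7.95 and 8.77 in the Tak1/Casp8 livers. The high mice were the ones low in Npas2, and the lowest Tak1/Rip3 mouse, replicate 4, was the highest in Npas2. The difference of 0.41 ± 0.25 (SE, 95% interval -0.14 to 0.96, limma adjusted p = 0.394) was carried in sign by 20 of 23 probe sets. It was 0.21 without Tak1/Rip3 replicate 4, 0.25 without Tak1/Casp8 replicate 4, 0.62 without Tak1/Rip3 replicate 2 and 0.47 without both arrays that stand apart. In both arrays that stand apart 20 of the 23 probe sets were higher than in the other mice.

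The promoters of Per3, Per1 and Cry1 are shown because they hold the elements through which the loop feeds back. Each is the 250 bases before an annotated start in the RefSeq table (GRCm38.p6), written 5′ to 3′ on the strand of the gene, and the table had a window for 9 of the clock genes, all but Per2. Capitals mark D-boxes (TTANGTAA) and E-boxes (CACGTG or its variant CACGTT), sought on both strands, and no match overlapped another. The stretches are chr4:151044666-151044915 on the minus strand for Per3, chr11:69098699-69098948 on the plus strand for Per1 and chr10:85185055-85185304 on the minus strand for Cry1.
Per3: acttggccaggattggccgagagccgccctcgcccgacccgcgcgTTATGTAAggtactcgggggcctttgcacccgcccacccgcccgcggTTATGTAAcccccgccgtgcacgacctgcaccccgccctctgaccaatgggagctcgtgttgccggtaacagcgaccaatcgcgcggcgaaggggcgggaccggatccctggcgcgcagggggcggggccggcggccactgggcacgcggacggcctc
Per1: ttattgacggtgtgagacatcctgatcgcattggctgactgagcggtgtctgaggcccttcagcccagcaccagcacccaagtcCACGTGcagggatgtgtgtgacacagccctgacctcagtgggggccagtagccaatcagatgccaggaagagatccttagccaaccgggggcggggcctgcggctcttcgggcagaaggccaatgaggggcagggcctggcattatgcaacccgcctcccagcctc
Cry1: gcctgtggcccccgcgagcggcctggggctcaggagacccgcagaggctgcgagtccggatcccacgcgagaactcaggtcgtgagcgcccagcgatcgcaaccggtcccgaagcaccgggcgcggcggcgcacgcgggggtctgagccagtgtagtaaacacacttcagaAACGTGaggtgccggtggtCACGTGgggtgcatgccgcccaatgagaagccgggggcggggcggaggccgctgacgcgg
Per3 held 2 D-boxes, the nearer at position -158 from the start, and D-boxes were found in 2.32% of all windows and in no other window of a clock gene. Per1 held an E-box at position -166 and Cry1 one at position -60, with the variant at position -79 in Cry1. The windows of Cry2 and Nr1d1 held the variant alone, at positions -166 and -28. The E-box was present in 7.15% of all windows and its variant in 4.68%. A match describes letters in the window and was not tested as a binding site.

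The CRY proteins are the stronger repressors of the dimer. Cry1 read 7.47, 6.99, 7.41 and 7.64 in the Tak1/Rip3 livers and 7.71, 7.42, 7.40 and 8.03 in the Tak1/Casp8 livers. Here the arrays that stand apart parted from each other, since replicate 2 was the lowest of Tak1/Rip3, by -0.51 against the other 3, and replicate 4 the highest of Tak1/Casp8, by 0.52. The difference between genotypes was 0.26 ± 0.17 (SE, 95% interval -0.12 to 0.64, limma adjusted p = 0.431). Without both arrays it was 0.00 and the pooled SD went from 0.29 to 0.15.

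Cry2 had the smallest spread of the 10 and the only separation between genotypes. It read 8.48, 8.55, 8.55 and 8.31 in the Tak1/Rip3 livers and 8.84, 8.59, 8.75 and 8.73 in the Tak1/Casp8 livers, so that every Tak1/Casp8 value lay above every Tak1/Rip3 value. The step was small, 0.26 ± 0.10 (SE, 95% interval 0.04 to 0.47, 1.19-fold), and all 12 probe sets were positive, by 0.02 to 0.52. It did not pass over all genes (limma adjusted p = 0.159), and its exact two-sided permutation p of 0.029 is the smallest that 4 against 4 arrays allow. Genes that do not overlap in this direction made up 6.33% of all genes.

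Nr1d1, the repressor of the stabilising loop, read 10.90, 11.21, 10.96 and 10.74 in the Tak1/Rip3 livers and 10.93, 10.78, 11.35 and 10.43 in the Tak1/Casp8 livers. In Tak1/Casp8 it was highest in replicate 3 and lowest in replicate 4, and in Tak1/Rip3 highest in replicate 2. The arrays low in Arntl were therefore on opposite sides for Nr1d1, by 0.35 in Tak1/Rip3 and -0.59 in Tak1/Casp8 against the other mice, and all 8 probe sets had these signs. The difference between genotypes was -0.08 ± 0.18 (SE, 95% interval -0.48 to 0.33, limma adjusted p = 0.861), and 0.16 without both arrays. A further probe set shared with the neighbouring receptor gene Thra was left out.

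Dbp, the output factor, read 9.30, 10.45, 9.28 and 8.71 in the Tak1/Rip3 livers and 9.77, 9.18, 9.45 and 10.23 in the Tak1/Casp8 livers. The high mice, Tak1/Rip3 replicate 2 and Tak1/Casp8 replicate 4, were those low in Npas2, and all 7 probe sets were higher in both than in the other mice. The lowest and highest mouse differed 3.34-fold within Tak1/Rip3 and 2.07-fold within Tak1/Casp8, and without the highest mouse of each 1.5-fold and 1.51-fold. The difference between genotypes was 0.22 ± 0.34 (SE, 95% interval -0.52 to 0.97, limma adjusted p = 0.765). It was -0.02 without Tak1/Rip3 replicate 4, 0.03 without Tak1/Casp8 replicate 4, 0.56 without Tak1/Rip3 replicate 2 and 0.37 without both arrays that stand apart.

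**Figure D2:**
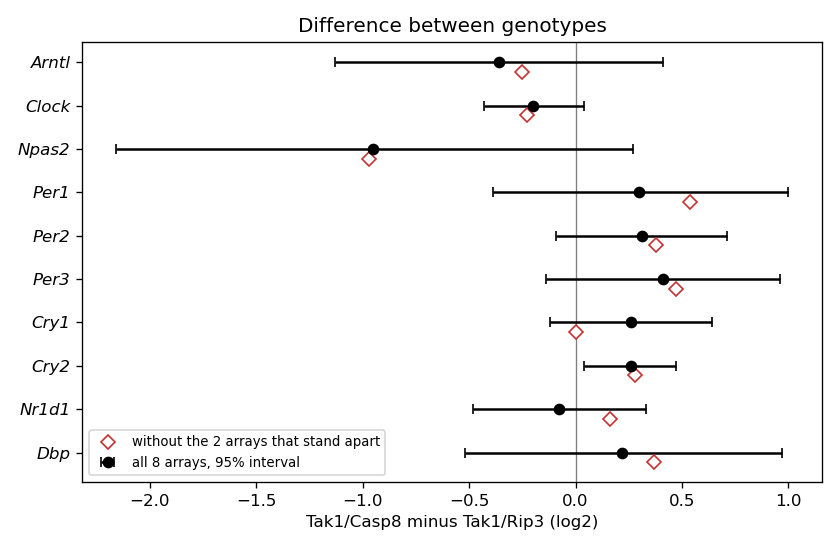
Difference between genotypes (Tak1/Casp8 minus Tak1/Rip3, log2) for each clock gene over all 8 arrays (filled points, bars the 95% interval from limma) and without the 2 arrays that stand apart (open diamonds). All intervals but that of Cry2 include 0, and Npas2 has the widest, from -2.16 to 0.27.

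The spread among mice of one genotype, pooled over both, was 1.01 for Npas2, 0.63 for Arntl, 0.61 for Dbp, 0.57 for Per1 and 0.44 for Per3, against a median of 0.18 over all genes. These correspond to percentiles 99.9, 99.4, 99.2, 98.9 and 96.9, and among the 2000 genes nearest in level the same 5 genes stood above percentile 95. Nr1d1 (percentile 87.5), Per2 (87.1) and Cry1 (84.6) were also above most genes, while Clock and Cry2 (15.6) were not. Each genotype contributed to the spread, as the SD was 0.99 and 1.02 for Npas2 and 0.57 and 0.56 for Per1 in Tak1/Casp8 and Tak1/Rip3. For Dbp it was 0.45 and 0.73. Without the 2 arrays that stand apart only Per1 remained in the top 5%, with Npas2 at percentile 94.3, Dbp at 93.1, Per3 at 90.4 and Arntl at 63.4. Wide spread was not particular to clock genes. All 5 listed genes of dividing cells were also in the top 5%, with and without these 2 arrays. The percentiles describe these arrays and carry no test.

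**Figure D3:**
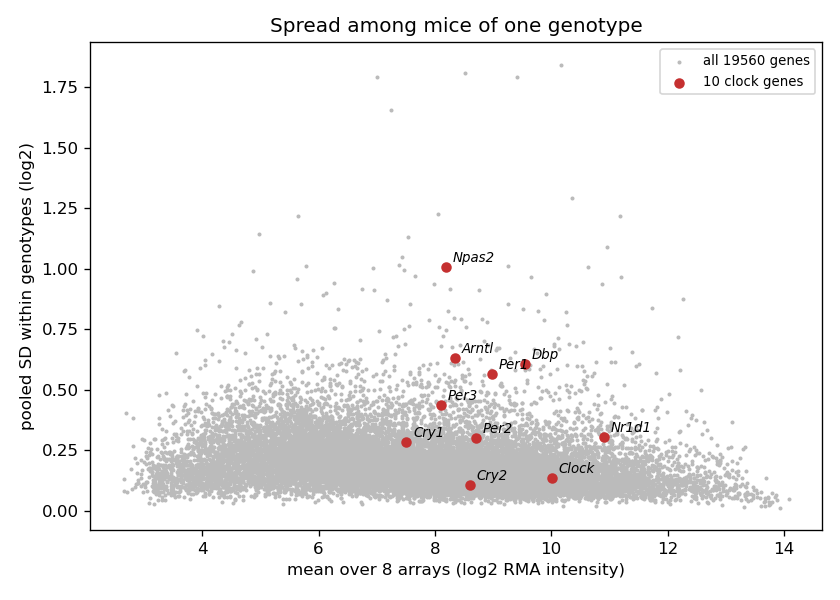
Pooled SD within genotypes (log2) against the mean level over 8 arrays (log2 RMA intensity) for all 19560 genes (grey) and the 10 clock genes (red). Npas2 at 1.01 lies above nearly all genes of its level, and Clock at 0.14 and Cry2 at 0.11 lie within the bulk.

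The mice can be read gene against gene. Within Tak1/Casp8 the order of the mice was the same for Arntl and Npas2, replicate 4 lowest, then 1, 2 and 3. Within Tak1/Rip3 replicate 2 was lowest for both, but replicate 4 was highest for Npas2 and not for Arntl. Dbp ran the other way: the mouse lowest in Npas2 was the highest in Dbp in both genotypes, and Tak1/Rip3 replicate 4, highest in Npas2, had the lowest Dbp. In Tak1/Casp8 the mouse highest in Npas2, replicate 3, did not have the lowest Dbp, which was that of replicate 2. Tak1/Rip3 replicate 2 was the lowest or highest of its genotype for all 10 clock genes, where it was so for 64.3% of all genes. Tak1/Casp8 replicate 3 was an extreme for 8 of the 10, against 45.6% of all genes, and Tak1/Casp8 replicate 4 for 6, against 65.5%.

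**Figure D4:**
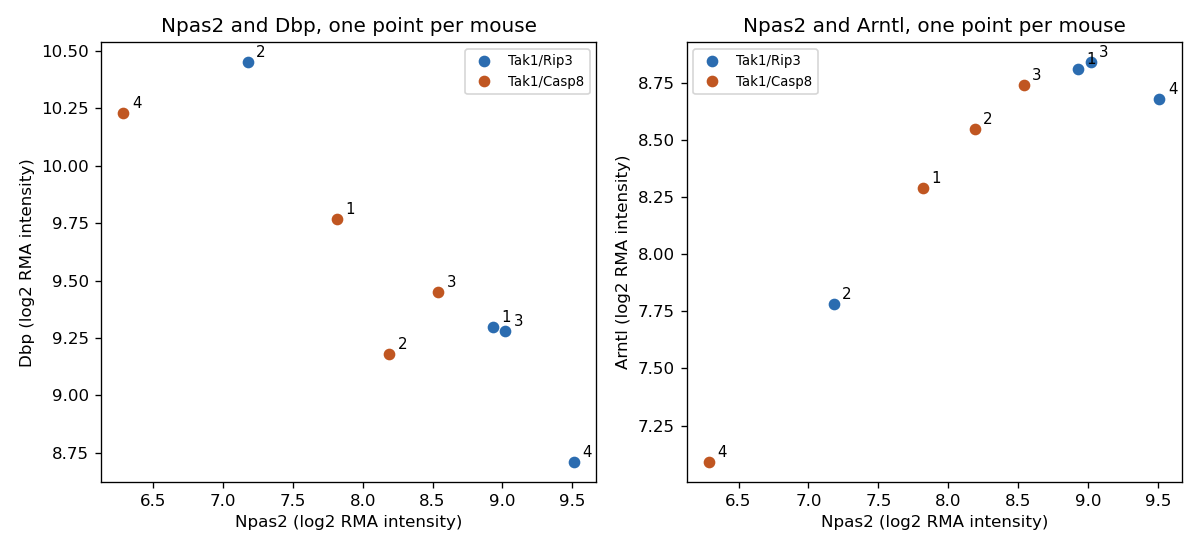
Dbp (left) and Arntl (right) against Npas2, all as log2 RMA intensity, with 1 point per mouse, coloured by genotype and numbered by replicate. Tak1/Casp8 replicate 4 and Tak1/Rip3 replicate 2 lie at the low end of Npas2, at 6.29 and 7.18, with the highest Dbp, 10.23 and 10.45, and the lowest Arntl.

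Ranked over all genes by how far both of these arrays departed to the same side from the other mice of their genotype, taking the smaller of the 2 departures, Npas2 came first among the genes that were lower, at -1.98 in Tak1/Rip3 and -1.90 in Tak1/Casp8. Arntl held rank 10, at -0.99 and -1.43. Among the genes that were higher, 3 of the first 10 belonged to the liver clock output list: Upp2, a uridine phosphorylase (1.06 in Tak1/Rip3 and 1.66 in Tak1/Casp8), Cyp7a1, the rate-limiting enzyme of bile acid synthesis (0.88 and 1.77), and Usp2, a deubiquitinase (1.36 and 0.86). First among them was Thrsp, a lipogenic regulator that is on no list (1.99 and 1.36). This ranking was made after the values had been seen and describes 2 mice.

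Another 11 genes of the loop were taken from a list. None passed between genotypes (limma, adjusted p under 0.05), against 6.69% of all genes. An unadjusted p under 0.05 was found for 2 (limma), against 21.1% of all genes. The median difference was -0.03, against 0.01 over all genes. The nearest were Nfil3, a repressor that competes with DBP at D-boxes (0.43 ± 0.17 SE, limma adjusted p = 0.179), and Arntl2, the paralogue of Arntl (-0.38 ± 0.15, limma adjusted p = 0.189). Nr1d2 (REV-ERB beta) differed by 0.47 and Tef, a bZIP relative of DBP, by 0.36, neither passing. Ciart, a repressor of the dimer, had the widest spread of the list, with 7.26, 9.09, 6.65 and 6.82 in the Tak1/Rip3 livers and 8.34, 8.10, 6.68 and 8.30 in the Tak1/Casp8 livers. It was high in Tak1/Rip3 replicate 2, as were Dbp and Per1, and low in Tak1/Casp8 replicate 3, as was Per1. Tef read 9.91 in Tak1/Rip3 replicate 2 and 10.24 in Tak1/Casp8 replicate 4, the highest of each genotype, as for Dbp and Per3.

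The enzymes and cofactors that modify clock proteins were counted next. Of 11 kinases, ligases and cofactors none passed, against 6.69% of all genes, with 1 at an unadjusted p under 0.05 (limma, 21.1% of all genes). That was Fbxl21, an F-box protein that binds CRY (0.35 ± 0.13 SE, limma adjusted p = 0.148). The casein kinases Csnk1a1 and Csnk1e differed by -0.22 and -0.16 and the cofactor Nono by -0.14, none passing. Only in Nono, 1 of the 11, did the genotypes not overlap, against 14.6% of all genes. Fbxl21 passed with the brightest probe set and Sirt1, a deacetylase, with the mean of probe sets. The median pooled SD of this list was 0.13, and none of its genes was in the top 5% of all genes.

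Of 13 genes known as clock output in liver 2 passed, both higher in Tak1/Casp8, where 2.64% of all genes passed in that direction. Lpin1, a phosphatidate phosphatase and coactivator, read 9.48, 10.40, 9.74 and 9.85 in the Tak1/Rip3 livers and 11.12, 11.53, 10.88 and 10.66 in the Tak1/Casp8 livers. The genotypes did not overlap, and the difference of 1.18 ± 0.22 (SE, 2.26-fold, limma adjusted p = 0.0117) passed with each array left out in turn. Rgs16, a regulator of G protein signalling, was 1.62-fold higher (0.70 ± 0.18 SE, limma adjusted p = 0.0423). That call was lost with 7 of the 8 arrays left out in turn, all but Tak1/Casp8 replicate 1 (limma adjusted p up to 0.119), with array weights, without both arrays that stand apart, and with the brightest probe set, where Rgs16 differed by 0.18. With single arrays left out the difference itself was 0.59 to 0.83, and it was 0.64 with array weights and without both arrays. Nampt, the rate-limiting enzyme of NAD salvage, was separated without overlap but did not pass (0.36 ± 0.11, limma adjusted p = 0.0894). The genotypes did not overlap in 3 of the 13 genes, Lpin1, Rgs16 and Nampt, against 14.6% of all genes. Alas1, which starts haem synthesis, differed by -0.37 and did not pass.

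**Figure D5:**
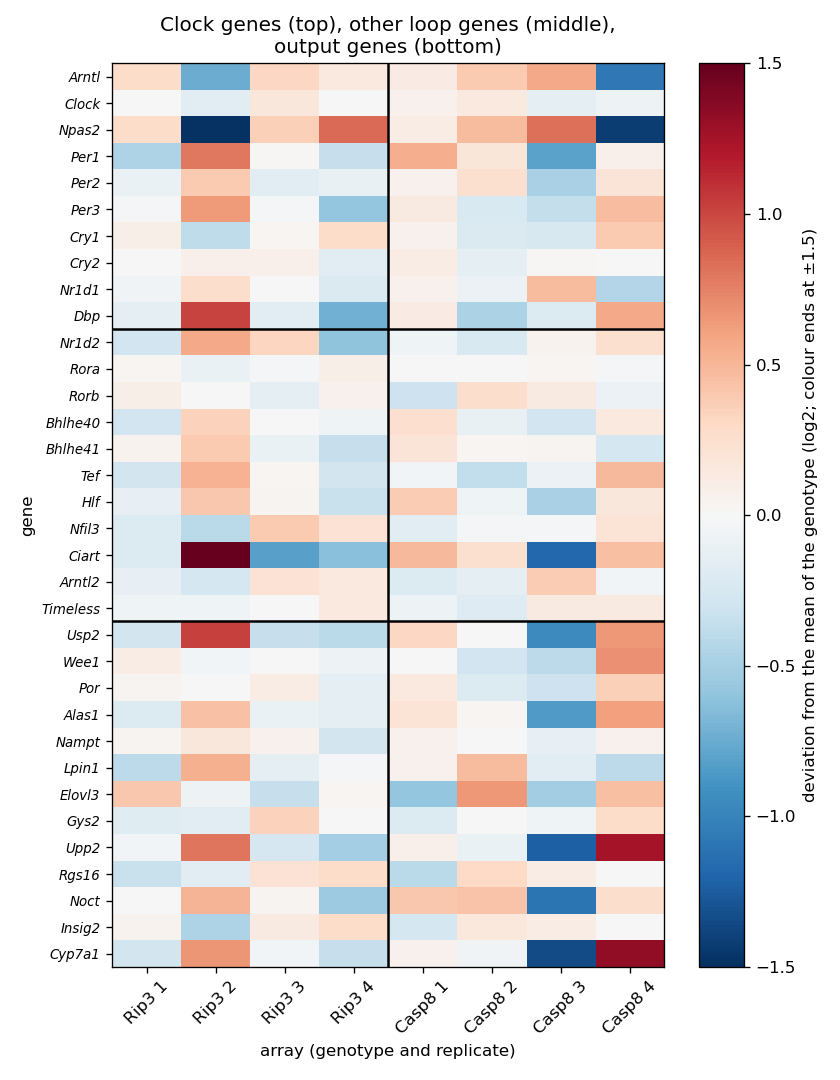
Deviation of each array from the mean of its genotype (log2, colour) for the 10 clock genes (top), 11 other loop genes (middle) and 13 output genes (bottom), with arrays in columns. Tak1/Rip3 replicate 2 and Tak1/Casp8 replicate 4 are blue for Arntl and Npas2 and red for Dbp, Per3, Tef, Upp2 and Cyp7a1, and Tak1/Casp8 replicate 3 is blue for Per1, Ciart, Upp2 and Cyp7a1.

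In the output list the spread among mice was again wide: 6 of the 13 genes were in the top 5% of all genes. Cyp7a1 read 11.76, 12.68, 11.99 and 11.67 in the Tak1/Rip3 livers and 11.50, 11.38, 10.09 and 12.76 in the Tak1/Casp8 livers, a 6.36-fold span in the latter and 2.65-fold without replicate 4. Upp2 spanned 5.56-fold there, from 8.95 in replicate 3 to 11.42 in replicate 4, and 2.48-fold without replicate 4. Without both arrays that stand apart, 6 of the 13 were again in the top 5%. Tak1/Casp8 replicate 3 was the lowest of its genotype for 8 of the 13 genes, against 5097 of all 19560 genes. Replicate 4 was the highest for 8 of the 13, against 8221 of all 19560.

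Glucocorticoid, feeding and temperature are known to act on the liver clock, and genes that respond to them were counted beside it. Of 8 glucocorticoid-induced genes 3 passed higher in Tak1/Casp8 (2.64% of all genes did) and none passed lower: the chaperone Fkbp5 (0.84 ± 0.16 SE, limma adjusted p = 0.0135), the metallothionein Mt2 (0.75 ± 0.16, limma adjusted p = 0.0203) and the zinc finger factor Zbtb16 (1.32 ± 0.31, limma adjusted p = 0.0328), while Tat differed by 0.50 and the kinase gene Sgk1 by -0.53 without passing. Of 10 fasting and feeding genes Ppargc1a (0.81) and Fasn (0.81) were higher and Pdk4 (-1.22) lower, and Srebf1 differed by 0.49 without passing. Beside this list and the next, 2.64% of all genes passed higher and 4.05% lower. Of 7 temperature-responsive genes Hspa1a, from 1 probe set, was higher (1.04) and Hsp90aa1 lower (-0.48), and Hspa8 (-0.27) and Dnajb1 (0.27) did not pass. Per1, which glucocorticoid also induces, did not pass beside them. The part of these responses in the clock genes was not tested.

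The genotypes also differed in genes of dividing cells, which mark no single cell type, and in markers of other cells. Bulk values of the clock genes include all these cells. Over all genes 2.64% passed higher in Tak1/Casp8 and 4.05% lower, and 21.1% had an unadjusted p under 0.05 (limma). All 5 genes of dividing cells passed lower in Tak1/Casp8, with a mean level of 7.52 to 8.97 there and 9.66 to 10.46 in Tak1/Rip3, and 2 of 3 B cell markers passed lower (list mean 5.69 to 5.90 against 6.65 to 6.99), Cd79a and Ms4a1, which lay under the lower quartile of probe sets on 6 and 8 of the arrays, near background. In the bile duct list Spp1 alone of 5 passed, higher, while Epcam (-1.05), Krt7 (-0.30) and Krt19 (-0.30) had negative differences and the list median was -0.30. In the stellate list Lrat alone of 5 passed, lower. Of the 5 macrophage, 5 endothelial, 5 T and NK cell and 4 neutrophil markers none passed (limma; 1, 1, 3 and 1 at an unadjusted p under 0.05), nor did any of the 6 hepatocyte markers (0 at an unadjusted p under 0.05). The part of these cells in the clock gene values was not tested.

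Likeness over the 8 arrays was measured as Pearson r after removal of the genotype means, among the genes at or above percentile 90 of spread, and is a description with no test, because so few arrays give high values of r for many of 1955 genes. The genes most like Arntl were Ap1m1, Serpinb9, Plekha6, Qsox1 and Lgi2 (0.98 to 0.99), and the most opposed were Rhoq, Tex26, Pim3, Fbxw18 and Ripply2 (-0.98 to -0.96). Npas2 ranked 13 from the top, at 0.95. The genes most like Dbp were Sctr, Htr2c, Fbxw24, Per3 and Gm16368 (0.93 to 0.98), so a clock gene stood at rank 4, with Tef at rank 9 (0.92). The most opposed to Dbp were Chka, Smndc1, Cwc27, Spon2 and Serpinb1c (-0.97 to -0.95), with Npas2 at rank 12 from the bottom (-0.93). Other clock genes stood further from Dbp, with Arntl at rank 70 from the bottom (-0.81) and Per1 at rank 251 from the top (0.63). Tex26, Fbxw18, Ripply2, Htr2c, Fbxw24, Gm16368 and Serpinb1c lay under the lower quartile of probe sets on all 8 arrays, where RMA values are near background.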

How the data were processed

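Liver RNA of 8 mice was hybridised to 1 array each. The authors deposited RMA values on a log2 scale (per the submitters' processing notes; no version stated), so shifts shared by most genes are largely removed. Detection calls were not used here, and the number of arrays limits the precision.

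Symbols came from the platform annotation and were updated (2571 symbols) through a RefSeq table of GRCm38.p6, matched by 19456 of 19560 genes. A gene value is the median over probe sets with 1 symbol (206316 of 223771). One genotype term was fitted over all 8 arrays with limma 3.58.1 in R 4.3.3 (lmFit, eBayes, two-sided), with Benjamini-Hochberg over all genes, called under 0.05, and again over all probe sets. The fit was tested on simulated data. Exact tests used the 70 assignments of arrays. The members and lists were chosen with earlier results of these data known. Named were all members, the up to 4 genes of each list with the smallest adjusted p, and the 5 genes most like and most opposed to Arntl and to Dbp. Ciart, Cyp7a1, Upp2, Usp2, Noct, Sgk1, Sirt1 and Thrsp were named after their values were seen. Alternatives were other normalisation, probe set summaries, filters, variance models, thresholds and leaving out arrays; omission of both least correlated arrays was added after seeing the data. Some listed genes are not reported here. Replicate numbers only name arrays. Figures used matplotlib 3.10.9.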

Additional observations from a re-analysis of the deposited data

Results flagged for a closer look

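Among 50 of the clock, output and list genes, each in both genotypes (100 groups of 4 arrays), 6 groups had 1 array further from the others than Dixon's 95% limit allows, and chance flags about 1 in 20 groups. The 50 did not cover every list. Ccnb2, a gene of dividing cells that was not flagged, read 7.53 in Tak1/Casp8 replicate 3 and 9.35 to 9.46 in the other mice of that genotype. In Tak1/Rip3 replicate 2 Arntl was far below the other arrays at 7.78, and Per2 (8.94), Usp2 (9.79) and Alas1 (12.65) were far above. In Tak1/Casp8 replicate 3 Ciart (6.68) and Noct (8.68) were far below.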

How the results depend on the processing

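The count of 1308 genes called was 759 with the brightest probe set, 406 at a threshold of 0.01, 2130 at 0.10 and 706 to 1347 with 1 array left out (Tak1/Rip3 replicate 1 gave 706, its replicate 4 gave 737, and Tak1/Casp8 replicate 2 gave 765). No clock gene was called under any alternative except Npas2 without both of the least correlated arrays (1 gene), which also left 1 gene in the top 5% of spread in place of 5 (4 to 5 with 1 array left out). Of the member probe sets 0 were called (10 of 181 at an unadjusted p under 0.05, limma), 1 with array weights (Per2), 2 without both arrays (both of Npas2), and 0 to 1 with 1 array left out (Npas2 without Tak1/Rip3 replicate 2, Arntl without Tak1/Rip3 replicate 4). Of all 223771 probe sets 3651 were called, 8114 with array weights and 4409 without both arrays. Without Tak1/Rip3 replicate 2 the count was 3023, and without its replicate 4 it was 1051. Of the listed loop, modifier and output genes 2 were called, 0 at 0.01, 1 without both arrays and 1 to 2 with 1 left out. The difference of Nr1d1, -0.08, turned to 0.01 with the brightest probe set, 0.05 with array weights and 0.16 without both arrays, and lay between -0.24 and 0.07 with 1 array left out, being 0.01 without Tak1/Rip3 replicate 2. That of Dbp was -0.02 to 0.56. The cause of these changes was not tested. Fbxl21 passed with the brightest probe set, Arntl2 with the brighter probe sets, Sirt1 with the mean of probe sets, and Nampt with array weights and at 0.10. No paired analysis was possible because the labels give the mice no shared replicate numbers. The number of mice limits which differences could be detected, most for the clock genes of wide spread.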
